A study of Homo sapiens with 6 samples.

Results

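Striated muscle contracts by means of sarcomeres, in which thin filaments of actin slide past thick filaments of myosin. Troponin sits on the thin filament and makes the sliding depend on calcium, titin spans the sarcomere as a spring, alpha-actinin anchors the thin filaments at the Z-disc, and myomesin ties the thick filaments together at the M-band. Most of these proteins come from small gene families whose members are used in different muscles (cardiac, slow skeletal or fast skeletal) or at different stages of development. Mesenchymal cells in culture make their contractile bundles from non-muscle and smooth muscle isoforms, so the sarcomere genes are known mainly from heart and skeletal muscle.

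The 9 striated muscle sarcomere genes described here were taken by symbol from the 58735 genes of the count table. They are the cardiac alpha-actin gene ACTC1, the troponin T genes TNNT1 (slow skeletal), TNNT2 (cardiac) and TNNT3 (fast skeletal), the cardiac and slow skeletal troponin C gene TNNC1, the embryonic myosin heavy chain gene MYH3, the myomesin gene MYOM1, the alpha-actinin gene ACTN2 and the titin gene TTN. RNA was measured by non-stranded mRNA-seq in UE7T-9, a human bone marrow mesenchymal stem cell line. The 3 control libraries came from UE7T-9 cells with the genotype WT, and the 3 SRRM4 KO libraries from UE7T-9 cells in which the splicing factor gene SRRM4 was targeted with a lentiviral CRISPR vector. After puromycin selection the KO cells were diluted to 1 cell per well, so the KO group is 1 cloned line. The study states that complete loss of SRRM4 was not obtained and that these cells keep part of its protein. KO here therefore names a line in which the study reports reduced SRRM4 protein. The methods do not say which vector, if any, the control cells carried. They describe UE7T-9 cells made to express Cas9 with a separate lentivirus for further experiments, and the discussion names lentivirus infection as a possible influence on the control, so its exposure is unclear. The study says that its experiments were repeated, but not whether the libraries of a group came from separate cultures, so p-values measure the spread between these libraries, which may be technical.

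The libraries held 21496117 to 23868323 counts. SRRM4 had 0 counts in all 6 libraries, so the RNA gave no check of the knockout. Among the controls, replicate 1 was the odd one out. Its counts differed from those of the others by a chi-square per degree of freedom of 20.9 and 21.4, against 5.44 between control replicates 2 and 3 and 4.93 to 9.13 among the KO libraries. Defining markers of skeletal muscle were at or near 0 in both groups. MYOD1, MYOG, MYF5, MYF6, PAX7 and MYLPF had 0 counts in each library, and the 12 skeletal muscle markers together gave 0.314 to 0.876 CPM (counts per 1000000 counts of the TMM-scaled library) in control and 0.411 to 1.23 CPM in the KO libraries. The 10 cardiac markers together gave 0.742 to 1.85 CPM in control and 0.269 to 0.575 CPM in the KO libraries, with TNNI3 and TBX5 at 0 in each. NPPB, the natriuretic peptide gene that alone of these was abundant enough to test, was called lower at 16, 10 and 11 counts in the controls against 3, 0 and 2 in KO (log2 change -2.85, edgeR adjusted p 0.0118). Of the mesenchymal stem cell markers, NT5E (CD73), ENG (CD105) and THY1 (CD90) all had counts in each library. Of the 8 listed markers 5, THY1 among them, were called lower in KO cells and 1, CD44, higher. Over all tested genes 7.14% were called lower and 5.45% higher, by the rule given below. Among blood cell markers PTPRC had at most 2 counts in a library, CD14 had 324 to 392 and CD34 had 66 to 93, with neither of the last called, and ITGAM had 5, 14 and 13 in the controls against 0 in each KO library. The epithelial marker EPCAM had at most 2 counts and CDH1, not called, had 9 to 39. The endothelial markers PECAM1 and CDH5 had at most 3 counts and 1 count, while TEK, another gene of that list, was called lower and its list of 4 genes summed to 13.8 to 15.998 CPM in control against 1.56 to 2.56 CPM in KO libraries. The neuronal list summed to 4.04 to 5.12 CPM in control and 2.09 to 3.55 CPM in KO, the blood list to 20.3 to 21.4 and 17.9 to 20.96 CPM, and the epithelial list to 0.646 to 1.93 and 0.404 to 0.575 CPM. The part of other cells in the results below was not tested.

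The 9 genes were weakly expressed or undetected in this cell line. Together they took 20.5 to 25.2 CPM of the control libraries and 7.50 to 11.6 CPM of the KO libraries. In 5 of them, ACTC1, TNNC1, TNNT2, MYH3 and MYOM1, the RNA was lower in SRRM4 KO cells, by 4.28-fold (MYH3) to 11.7-fold (MYOM1). The slow skeletal troponin T gene TNNT1 went the other way and was 8.62-fold higher. TTN and ACTN2 had too few counts to be tested, and TNNT3 had 0 counts in all 6 libraries. A gene was called when the quasi-likelihood test of edgeR, adjusted by Benjamini-Hochberg over 15341 tested genes, gave p under 0.05 and the log2 fold change was beyond 1. By this rule 7.14% of all tested genes were lower and 5.45% higher. Among the 2674 tested genes with a mean CPM within the range of the 6 tested sarcomere genes, 15.4% were called lower and 9.35% higher. Of the 6 tested genes, TNNT1, TNNT2 and MYOM1 passed the filter on low counts through the group in which they are high, so the share of called genes among the 6 cannot be set against these percentages. TNNT1 reached the filter's level of 0.453 CPM in 1 control library, TNNT2 in 1 KO library and MYOM1 in 0 KO libraries. In bulk RNA, fewer expressing cells and less RNA per cell cannot be told apart.

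**Figure D1:**
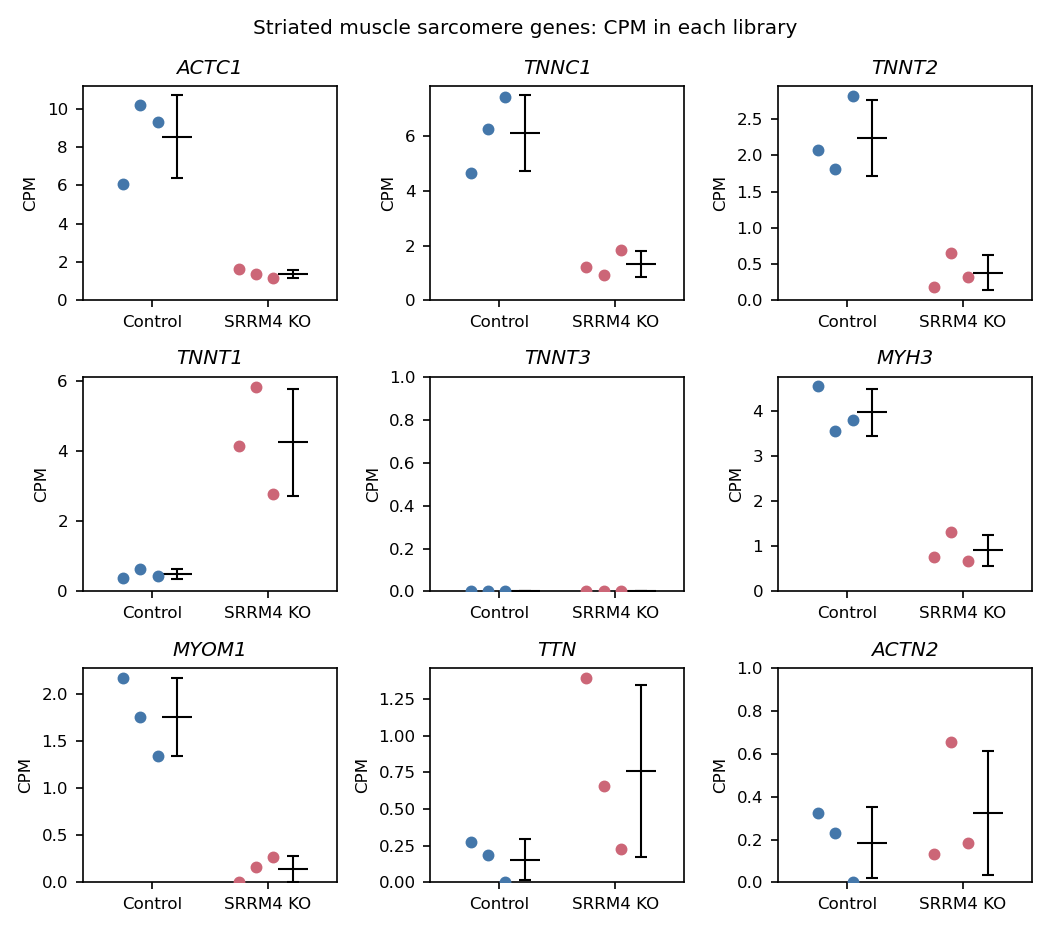
CPM (counts per 1000000, TMM-scaled) of each of the 9 sarcomere genes in the 3 control (blue) and 3 SRRM4 KO (red) libraries, with the mean and SD as a black bar beside the points and an axis of its own for each gene. The groups are separate for ACTC1, TNNC1, TNNT2, TNNT1, MYH3 and MYOM1 and overlap for TTN and ACTN2, and TNNT3 is at 0 in each library.

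Promoters were printed for the 4 called genes that have an entry in RefSeq's promoter table (GRCh38.p14), because ACTC1, TNNT2 and MYOM1 fell together while TNNT1 rose. Each run is the 250 bases before the annotated start, 5′ to 3′ on the gene's strand. Capitals mark matches to motifs of factors known from muscle genes: the CArG box, bound by SRF with the myocardin family, the MCAT motif CATTCC, bound by TEAD factors, and the MEF2 box. Both strands were searched, and none of the matches overlapped another. The ACTC1 run is the first of 3 start sites in the table, at chr15:34795550-34795799 on the minus strand, that of TNNT1 is at chr19:55149207-55149456 (minus), that of TNNT2 at chr1:201377681-201377930 (minus) and that of MYOM1 at chr18:3219969-3220218 (minus).
ACTC1: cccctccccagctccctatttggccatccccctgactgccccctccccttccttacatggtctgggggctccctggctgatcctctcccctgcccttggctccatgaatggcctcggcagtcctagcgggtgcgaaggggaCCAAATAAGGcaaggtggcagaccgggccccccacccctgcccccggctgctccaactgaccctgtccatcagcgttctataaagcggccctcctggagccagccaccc
TNNT2: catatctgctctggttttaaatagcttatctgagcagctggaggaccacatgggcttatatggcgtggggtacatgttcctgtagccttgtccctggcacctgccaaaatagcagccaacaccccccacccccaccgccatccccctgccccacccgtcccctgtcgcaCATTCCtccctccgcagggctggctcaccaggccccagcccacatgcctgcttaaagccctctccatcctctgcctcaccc
MYOM1: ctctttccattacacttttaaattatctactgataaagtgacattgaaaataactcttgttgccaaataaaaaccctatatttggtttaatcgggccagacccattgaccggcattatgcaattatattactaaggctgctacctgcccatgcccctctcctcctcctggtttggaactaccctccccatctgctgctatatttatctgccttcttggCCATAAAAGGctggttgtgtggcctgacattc
TNNT1: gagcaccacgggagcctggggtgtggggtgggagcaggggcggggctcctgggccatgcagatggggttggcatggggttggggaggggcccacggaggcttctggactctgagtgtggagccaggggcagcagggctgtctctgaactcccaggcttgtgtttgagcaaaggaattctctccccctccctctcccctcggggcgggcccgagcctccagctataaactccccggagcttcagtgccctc
A CArG box stood in the ACTC1 window, from -109 to -100 bases relative to the start, and in the MYOM1 window, from -32 to -23. Of all 35116 promoter windows of this length, 1.16% hold a CArG box. TNNT2 had an MCAT motif from -81 to -76, as 11.9% of all windows do. Another ACTC1 start site, whose window is not shown, also had an MCAT motif, from -174 to -169. TNNT1 had a match to none of these 3 motifs in its window. An E-box (CANNTG), bound by factors of the MYOD family among others, is in 61.8% of all windows. It occurred 4 times in TNNT2 and 1 time each in TNNT1, MYOM1 and the ACTC1 window shown. The TTN window held a MEF2 box, as 2.80% of all windows do, from -167 to -158, and the ACTN2 window held 3 E-boxes and no other match. These matches describe letters in the windows, and binding was not measured.

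Cardiac alpha-actin, the product of ACTC1, forms the thin filament of heart muscle and of developing skeletal muscle. ACTC1 (ENSG00000159251, GRCh38, chromosome 15, 34788095 to 34795726, minus strand) was the most abundant of the 9 genes by counts in control. Control replicates 1 to 3 held 132, 220 and 208 of its counts and KO replicates 1 to 3 held 36, 33 and 26. Every KO library was below every control library, which was so for 25.9% of all tested genes, and control replicate 1 was the lowest of the control libraries. Mean levels were 8.54 ± 2.17 CPM in control and 1.38 ± 0.219 CPM in KO (SD, n = 3), 6.15-fold lower. In edgeR the log2 change was -2.62 with an SE of 0.256 and an adjusted p of 9.31e-07. Without control replicate 1 the value was -2.81.

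ACTC1 belongs to a family of near-identical actin proteins, and whether reads of the far more abundant ACTA2 were counted for it was not tested. Of the 3645 windows of 50 bases in its longest coding transcript, 10 occurred exactly in transcripts of another gene, most often AP000529.1, POTEG and POTEKP, and of windows of 100 bases 0 did. ACTA1, the skeletal actin gene, had at most 2 counts in a library, and ACTA2 had 15604 to 19416 counts in control. ACTC1 came to 0.846% to 1.15% of the ACTA2 counts in the control libraries and to 1.47% to 1.80% in the KO libraries, where ACTA2 was itself 9.55-fold lower. The antisense gene AC087457.1 shares 367 of the 4602 exon bases of ACTC1 and had 0 counts in each library.

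Troponin C binds the calcium that starts contraction, and TNNC1 encodes the form of heart and slow muscle. Counts of TNNC1 (ENSG00000114854, chromosome 3, 52451102 to 52454070, minus strand) were 101, 135 and 166 in the controls against 27, 23 and 41 in KO. The groups were separate, with the highest KO library well under the lowest control library. TNNC1 averaged 6.12 ± 1.40 CPM in control and 1.34 ± 0.473 CPM in KO (SD, n = 3), 4.58-fold lower. The log2 change was -2.19 (SE 0.297, edgeR adjusted p 2.66e-05). TNNC2, the fast skeletal form, was not tested, at 4, 19 and 9 counts in control and 2, 0 and 0 in KO.

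Troponin T attaches the troponin complex to tropomyosin, and its 3 genes gave different pictures. The cardiac gene TNNT2 (ENSG00000118194, chromosome 1, 201359008 to 201377762, minus strand) was seen with 45, 39 and 63 counts in the controls against 4, 16 and 7 in KO. KO replicate 2 was the highest of its group and still lay under each control library. It averaged 2.24 ± 0.526 CPM in control and 0.385 ± 0.246 CPM in KO (SD, n = 3), 5.68-fold lower, with a log2 change of -2.51 (SE 0.503, edgeR adjusted p 0.000923). Without KO replicate 2 it was -3.15. TNNT2 overlaps LAD1 on the same strand and shares 81 of its 7259 exon bases with it. LAD1 (13, 24 and 15 counts in the controls, 5, 14 and 6 in KO) had a log2 change of -1.13 and was not called (adjusted p 0.137 by edgeR), and its part in the TNNT2 counts was not tested.

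The slow skeletal gene TNNT1 (ENSG00000105048, chromosome 19, 55132794 to 55149354, minus strand) was low in the controls, at 8, 14 and 10 counts, against 92, 142 and 61 in KO. The lowest KO library was far above the highest control library, and KO replicate 2 was the highest. Its mean was 0.489 ± 0.145 CPM in control and 4.24 ± 1.53 CPM in KO (SD, n = 3). This was a log2 change of 3.11 with an SE of 0.391 and an adjusted p of 1.33e-05 in edgeR. KO libraries were all above control in 25.9% of tested genes. TNNT1 cannot be set against that share, as it passed the filter on low counts through the KO group. TNNT3 (ENSG00000130595, chromosome 11, 1919562 to 1938706, plus strand), the fast skeletal gene, had no counts, and a count of 0 allows up to 3 counts, or 0.123 to 0.139 CPM in these libraries (counting error only).

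The share of TNNT1 in troponin T RNA restates the opposite changes of TNNT1 and TNNT2, since TNNT3 had no counts. Per kb of annotated exons, TNNT1 was 37.3%, 54.6% and 34.7% of the troponin T total in control replicates 1 to 3 and 98.7%, 96.7% and 96.7% in the KO libraries, on 53 to 158 troponin T counts per library. The length used matters in the control group. TNNT2 is annotated with 25 transcripts whose exons span 7259 bases in all, whereas the transcript with its longest coding sequence has 1098 bases. With the lengths of such coding transcripts the TNNT1 share was 17.6% ± 6.74 (SD, n = 3) in control and 91.4% ± 3.67 (SD, n = 3) in KO. With plain counts it was 18.4% ± 6.97 and 91.8% ± 3.49 (SD, n = 3). On each of the 3 scales the lowest KO library was above the highest control library. The separate counts of TNNT1 and TNNT2 fix this in advance, as a length changes their ratio alike in every library.

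**Figure D2:**
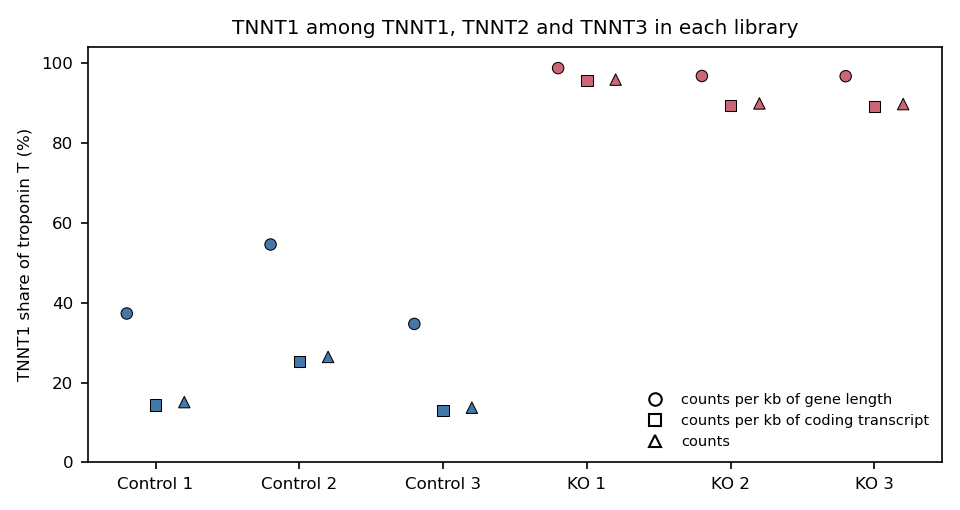
Share of TNNT1 in the summed troponin T genes (percent) in each library, with control in blue and SRRM4 KO in red, on 3 scales marked by shape. TNNT1 ran from 13.0% to 54.6% in the control libraries and from 89.2% to 98.7% in the KO libraries.

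Each troponin T gene lies beside a troponin I gene, which encodes the inhibitory subunit of the complex. TNNI3 (cardiac) is 2.41 kb from TNNT1, TNNI1 (slow skeletal) 26.005 kb from TNNT2 and TNNI2 (fast skeletal) 77.9 kb from TNNT3. TNNI3, next to the gene that rose, had 0 counts in each library. TNNI1 had 3, 5 and 2 counts in control and TNNI2 had 0, 10 and 4, and both had 0 in each KO library. None of the troponin I genes was abundant enough to be tested.

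MYH3 encodes the myosin heavy chain of embryonic skeletal muscle. The controls held 99, 77 and 85 counts of MYH3 (ENSG00000109063, chromosome 17, 10628526 to 10657309, minus strand), and the KO libraries 17, 32 and 15. The groups were separate, at 3.98 ± 0.519 CPM in control and 0.920 ± 0.344 CPM in KO (SD, n = 3). MYH3 was 4.28-fold lower, a log2 change of -2.10 (SE 0.334, edgeR adjusted p 0.000126). Other heavy chain genes are similar in sequence, and 235 of the 5988 windows of 50 bases in the MYH3 coding transcript also occur in another gene, mainly MYH13, MYH2 and MYH1. Those genes had at most 4 counts in a library. The adult cardiac heavy chains MYH6 and MYH7 had at most 4 counts and 1 count.

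Myomesin 1 cross-links myosin at the M-band. Its gene MYOM1 (ENSG00000101605, chromosome 18, 3066807 to 3220108, minus strand) gave 47, 38 and 30 counts in the controls and almost none in KO, at 0, 4 and 6. The mean was 1.76 ± 0.412 CPM in control and 0.146 ± 0.137 CPM in KO (SD, n = 3). In edgeR this was a log2 change of -3.54 with an SE of 0.665 and an adjusted p of 0.000533. With so few KO counts the size of the fall is poorly fixed. It was -4.29 without KO replicate 3 and -2.99 without KO replicate 1. The antisense gene AP005329.2, which shares 77 of the 6574 exon bases of MYOM1, had 0 counts in control and 7, 5 and 0 in KO. The related MYOM2 was not called (log2 change 0.65), at 51, 45 and 49 counts in control and 72, 86 and 80 in KO.

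Titin and alpha-actinin 2 were near the detection limit. Counts of TTN (ENSG00000155657, chromosome 2, 178525989 to 178830802, minus strand) were 6, 4 and 0 in the controls against 31, 16 and 5 in KO. The groups overlapped, since KO replicate 3 held fewer counts than control replicate 1. With no filter on low counts, which left 27405 genes to test, TTN had a log2 change of 2.26 (SE 0.843, edgeR adjusted p 0.0322). TTN also passed the filter when certain libraries were left out. It was then called higher without control replicate 1 (2.97) and without KO replicate 3 (2.69), and not without control replicate 2 or 3 (edgeR adjusted p 0.0933 and 0.149). The antisense gene TTN-AS1 shares 11381 of the 118976 exon bases of TTN and had 0 counts in each library. How reads over both genes were counted is not given in the sources used here. ACTN2 (ENSG00000077522, chromosome 1, 236686454 to 236764631, plus strand) had 7, 5 and 0 counts in control and 3, 16 and 4 in KO, and with no filter its log2 change was 0.80 (SE 1.08, edgeR adjusted p 0.623).

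Set side by side as levels per kb of annotated exons, the genes changed their order. In control TNNC1 was highest, at 5.24 ± 1.19 CPM per kb (SD, n = 3), followed by ACTC1 at 1.86 ± 0.471, MYH3 at 0.596 ± 0.0777, TNNT2 at 0.308 ± 0.0724, MYOM1 at 0.267 ± 0.0626 and TNNT1 at 0.225 ± 0.0666. The last 3 overlapped one another. ACTN2 stood at 0.0334 ± 0.0301. In KO cells TNNT1 was highest, at 1.95 ± 0.706, then TNNC1 at 1.15 ± 0.405, and these overlapped. ACTC1 followed at 0.301 ± 0.0475 and MYH3 at 0.138 ± 0.0515. MYH3 overlapped with ACTN2 at 0.0587 ± 0.0522, and ACTN2 with TNNT2 at 0.0530 ± 0.0338 and MYOM1 at 0.0222 ± 0.0209. TTN, whose transcript is by far the longest, stood at 0.00130 ± 0.00119 in control and 0.00638 ± 0.00495 in KO. With the length of 1 coding transcript per gene, TNNT2 moved above MYH3 in control, to 2.04 ± 0.479 CPM per kb (SD, n = 3), and overlapped with ACTC1 at 2.31 ± 0.587. TNNC1 in control and TNNT1 in KO still had the highest means.

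**Figure D3:**
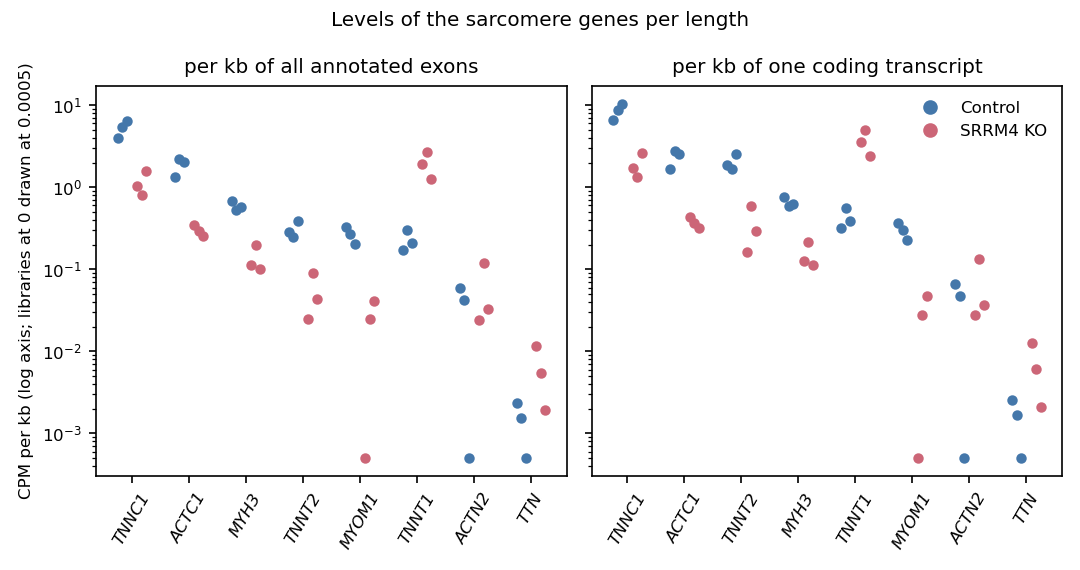
CPM per kb (log axis) of 8 sarcomere genes in each control (blue) and SRRM4 KO (red) library, per kb of all annotated exons (left) and per kb of the transcript with the longest coding sequence (right); libraries at 0 are drawn at 0.0005 and TNNT3, at 0 throughout, is left out. TNNC1 has the highest mean in control and TNNT1 in KO on both scales, although in KO replicate 3 TNNC1 lies above TNNT1, while the place of TNNT2 depends on the length used.

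The 6 tested genes lie on 6 chromosomes, and the genes around each were looked at in turn. Within 1 Mb of a member, 4 (MYH3) to 42 (TNNT1) other genes were tested. Their median log2 fold change ran from -0.50 around MYH3 to 0.15 around TNNC1. Over all tested genes 7.14% were called lower and 5.45% higher. Around ACTC1 0 of 15 were called. Around TNNT2 2 of 24 were called lower and 2 higher, around TNNC1 1 of 37 lower and 1 higher, and around TNNT1 5 of 42 lower and 4 higher. Around MYH3 1 of 4 and around MYOM1 2 of 13 were called higher and 0 lower. The median of all tested genes on the members' chromosomes ran from -0.34 (chromosome 18, MYOM1) to 0.21 (chromosome 17, MYH3).

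For each tested member, the protein-coding gene with the most similar pattern was taken as the one with the smallest mean absolute difference over the 6 libraries of log2 CPM centred on each gene's own mean. A prior count of 2 was added for this measure, which draws scarce genes such as TNNT2, MYOM1 and their nearest genes together, so their fitted log2 changes differ more than the measure does (-2.51 for TNNT2 and -3.41 for MAGEC2). For ACTC1 this was the collagen gene COL5A3, at a mean difference of 0.11 in log2 units. It was counted 1569, 1833 and 1856 times in the controls against 341, 313 and 255 times in KO. TNNT1 was closest to COL13A1 (0.24), also a collagen gene, which had 70, 118 and 95 counts in control and 875, 905 and 738 in KO. The nearest genes to TNNC1, MYH3, MYOM1 and TNNT2 were CTHRC1 (0.16), the fructose transporter gene SLC2A5 (0.15), RAPGEF5 (0.16) and MAGEC2 (0.15). Each of the 6 nearest genes lay outside the muscle lists and was called in the same direction as its member, which the choice by likeness fixes.

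Lists of other muscle genes, written with earlier results of these data known, set these values in context. The 3 sarcomere lists (thin filament, thick filament, and Z-disc with titin and M-band) hold 61 genes besides the 9. Of these 22 were abundant enough to be tested, 6 were called lower and 0 higher, and their median log2 fold change was -0.51, against -0.01 over all tested genes. At an adjusted p under 0.05 with no fold threshold, 13 of the 22 were lower and 4 higher, where 20.9% of all tested genes were lower and 20.7% higher (edgeR).

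Besides 4 of the 9 genes, the thin filament list held 6 tested genes, of which 2, TPM2 and TMOD1, were lower and 0 higher, with a median of -0.51, where 7.14% of all tested genes were lower and 5.45% higher. The groups overlapped for TMOD1, at 54, 79 and 40 counts in control and 43, 20 and 16 in KO (edgeR adjusted p 0.0359). TPM2, a tropomyosin gene used in skeletal and smooth muscle, went down from 386 ± 89.6 to 159 ± 16.5 CPM (SD, n = 3), which is -1.28 on the log2 scale. TPM1, the most abundant gene of the list, was at 981 ± 20.97 CPM in control and 646 ± 14.3 CPM in KO (SD, n = 3), and its change of -0.60 on the log2 scale was under the fold threshold. Of the thick filament list 18 of 20 genes in the table were too scarce to test, and the other two were MYH3 and MYH7B (-0.05, not called). Besides MYOM1, the list of Z-disc, titin and M-band genes held 15 tested genes, with 4 lower and 0 higher and a median of -0.53. The lower genes included OBSL1, an obscurin-like adaptor, which fell from 194 ± 19.1 to 90.9 ± 1.40 CPM, SYNPO2, which binds actin at the Z-disc and is also counted in the smooth muscle list, from 26.1 ± 3.09 to 6.53 ± 0.568 CPM, and LDB3, a PDZ-LIM protein bound to alpha-actinin, from 6.67 ± 1.29 to 1.74 ± 0.268 CPM (SD, n = 3). PALLD, with the highest mean over the 6 libraries, was not called, at -0.34, nor was FLNC, which had the highest mean in KO, at 0.27.

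**Figure D4:**
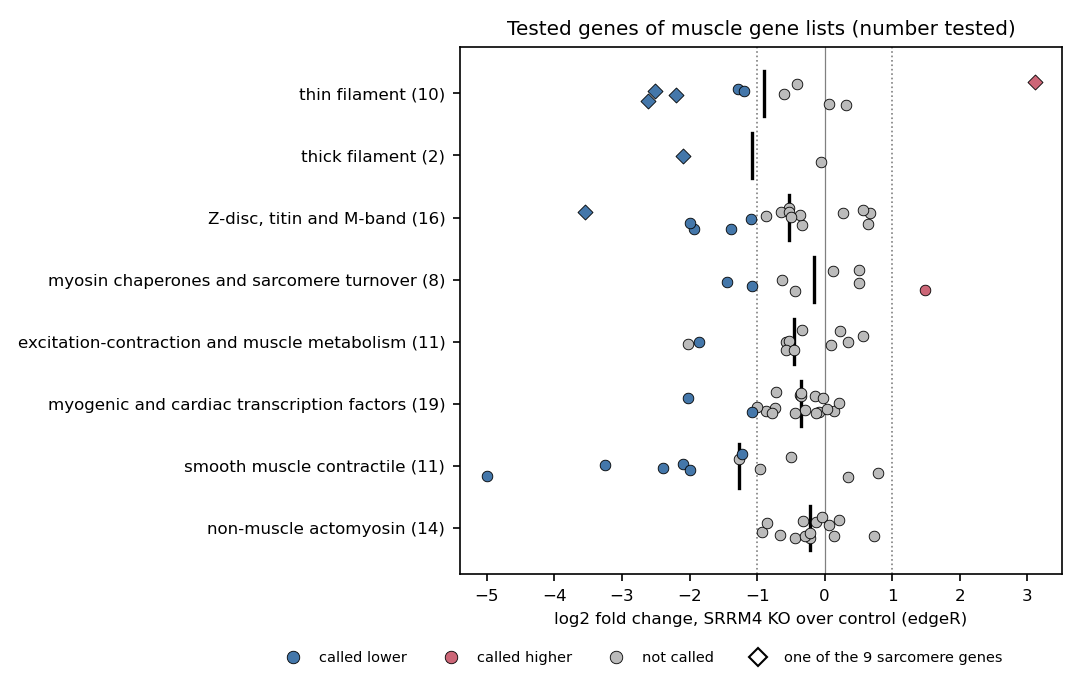
Log2 fold change (SRRM4 KO over control) of each tested gene in 8 muscle-related lists, with the number tested in brackets; diamonds are the sarcomere genes of this report, blue and red mark genes called lower and higher, thick bars are list medians and dotted lines the fold threshold of 1. TNNT1 and HSPB8 are the genes called higher, and the smooth muscle list has the lowest median, at -1.27.

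Chaperones and turnover factors of the sarcomere went both ways, with 2 lower and 1 higher of 8 tested (median -0.16). For this list and those that follow, the shares over all tested genes were 7.14% lower and 5.45% higher. The small heat shock genes CRYAB (-1.44) and HSPB7 (-1.08) were lower, while HSPB8, which works with BAG3 in removing damaged filament proteins, rose from 73.1 ± 0.424 to 204 ± 2.76 CPM (SD, n = 3). Of 11 tested genes of excitation-contraction coupling and muscle metabolism, 1 was called, the calcium channel gene CACNA1C (-1.85, lower), and the median was -0.46. ATP2A2, the calcium pump gene that was most abundant there, stood at 0.23. The list of myogenic and cardiac transcription factors had 19 tested genes, of which 2 were lower and 0 higher (median -0.36). MYOCD, which encodes the SRF partner myocardin, had 62, 60 and 71 counts in control and 25, 12 and 12 in KO, a log2 change of -2.03 (edgeR adjusted p 0.000677). MEF2C fell by 1.08 on the log2 scale. SRF itself was at 111 ± 11.6 CPM in control and 105.3 ± 8.76 CPM in KO (SD, n = 3), with a log2 change of -0.08 (SE 0.098, not called). TEAD1, the most abundant factor of the list, was not called at -0.36.

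The smooth muscle list had 11 tested genes, of which 6 were lower and 0 higher (median -1.27), where 7.14% of all tested genes were lower and 5.45% higher. Their levels ran from well above those of the 9 sarcomere genes to 0.924 CPM in control for MYH11, the smooth muscle myosin heavy chain gene, which was not called. ACTA2 (-3.26), CALD1 (-1.23) and CNN1 (-2.10) were the called genes with the highest mean level over the 6 libraries. MYL9, which had the highest such mean of the list, was at -0.50 and not called. The non-muscle actin, myosin and alpha-actinin list had 14 tested genes, of which 0 were called in either direction, with a median of -0.22. Of these, 13 are not shared with the thin filament list. At an adjusted p under 0.05 with no fold threshold, 8 of the 13 were lower and 2 higher (edgeR). Over all tested genes these shares were 20.9% and 20.7%. ACTB, with the highest mean over the 6 libraries, was at -0.22, and ACTG1, which had the higher mean in KO (ACTB was above it in KO replicate 1), was at 0.73 and also not called. The part of the smooth muscle shift in the values of the sarcomere genes was not tested.

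**Figure D5:**
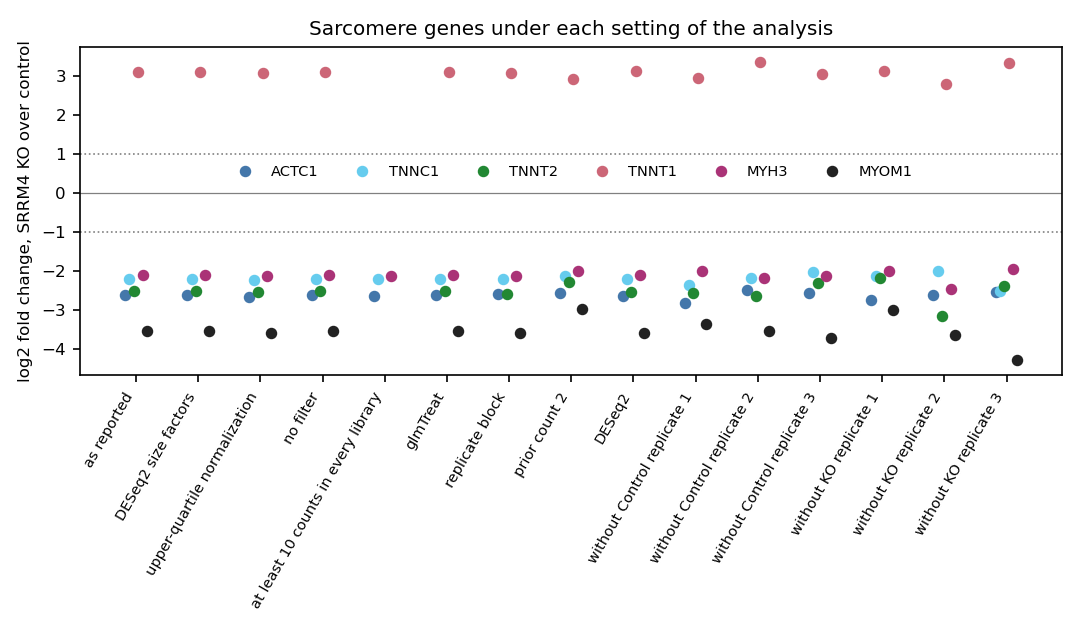
Log2 fold change (SRRM4 KO over control) of the 6 tested sarcomere genes under the analysis as reported and 14 alternatives, with dotted lines at the fold threshold of 1; a gene is missing where the alternative left it untested. TNNT1 stays between 2.80 and 3.36 and the other 5 genes stay below -1.93.

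The calls of the 6 tested genes did not depend on the alternative used. ACTC1, TNNC1 and MYH3 kept direction and call in all 14 alternatives, and TNNT1, TNNT2 and MYOM1 in the 13 that tested them. The log2 fold change ran from -2.81 to -2.47 for ACTC1, from -2.51 to -1.997 for TNNC1, from -3.15 to -2.18 for TNNT2, from -2.46 to -1.93 for MYH3 and from -4.29 to -2.97 for MYOM1. Without control replicate 1, the library that stood apart, the values were -2.36 for TNNC1, -2.56 for TNNT2, 2.94 for TNNT1, -1.99 for MYH3 and -3.37 for MYOM1.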

How the data were processed

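Per the study's methods, RNA of the 3 control and 3 KO samples went into non-stranded mRNA libraries read on a NovaSeq instrument. The table the authors deposited holds whole-number counts for 58735 genes, not normalized. The submitters' processing notes name HISAT2 2.0.5, featureCounts 1.5.0-p3 and DESeq2 without stating their roles, and the genome build is not given in the sources used here. All 58735 gene IDs had the same start and end in GENCODE release 29 (GRCh38), which supplied exons and transcripts. Libraries were assigned by their titles, and 0 value columns were left unassigned.

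Counts were tested with edgeR 4.0.16 in R 4.3.3 (TMM, filterByExpr, prior count 0.125, quasi-likelihood test, Benjamini-Hochberg adjustment), with both groups in 1 fit. The methods do not state a test for differential expression. Each SE is the size of the log2 fold change over the square root of its F value. Alternatives were other size factors, other filters, DESeq2 1.42.0, a test against the fold threshold (glmTreat), the replicate number as a block, a prior count of 2 and leaving out each library. The scripts were tested on simulated counts. The 9 genes and all lists were chosen with earlier results of these data known. Named genes are the 9, the troponin genes, genes overlapping the 9, SRRM4, up to 3 called genes per direction and list and its most abundant gene, and the gene nearest in pattern to each tested member. MYOM2, MYH7B, MYH11, FLNC, ACTG1, TEK, SRF, ACTA1 and other genes named beyond that rule were chosen after their values were seen. 2 groups of 3 cannot reach p < 0.05 in an exact permutation test (smallest 0.1), so none is given.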

Additional observations from a re-analysis of the deposited data

How the results depend on the processing

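The calls of the 9 sarcomere genes, 5 lower and 1 higher, were the same in number with DESeq2 size factors, upper-quartile normalization, DESeq2, glmTreat and a prior count of 2. With no filter, 2 were higher, since TTN joined TNNT1. With at least 10 counts in every library, 3 were lower and 0 higher, since TNNT1, TNNT2 and MYOM1 are then not tested. Leaving out each library in turn gave 5 lower in each fit and 1 to 2 higher, with TTN the addition without control replicate 1 and without KO replicate 3. The replicate numbers did not pair the libraries: the deviations of same-numbered libraries from their group means correlated at -0.05, 0.08 and -0.05 for replicates 1 to 3, and control replicate 1 correlated best with KO replicate 3 (0.16). With the replicate block the calls were again 5 lower and 1 higher, and over all tested genes 1093 lower and 842 higher.

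Over all tested genes 1096 were lower and 836 higher. A test against the fold threshold called 577 and 360. The fits without 1 library gave 1029 to 1162 lower and 791 to 875 higher genes. The wider muscle lists, which include the 9 genes, had 21 lower and 2 higher genes, 15 to 27 and 1 to 3 over all alternatives. The lower end for higher genes, 1, came with at least 10 counts in every library, where TNNT1 is not tested. Leaving out 1 library gave 22 to 26 lower and 2 to 3 higher. The TNNT1 share depended on the length used. It was 42.2% in control and 97.4% in KO per kb of annotated exons, 18.4% and 91.8% by counts, and 17.6% and 91.4% per kb of 1 coding transcript, the last a choice made after seeing the data. Other size factors moved the median of all genes by less than 0.1. MYOM1, TNNT2, TNNT1, TTN and ACTN2 each had libraries with under 10 counts, which limits the precision of their values.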

Other observations

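Muscle genes too scarce to test were counted as well, with no test. In the 3 sarcomere lists, 42 genes were not tested and 11 of them had 0 counts in all 6 libraries. Of the others 22 had more counts in the control group, 8 more in the KO group and 1 the same. Their counts summed to 370 in control and 195 in KO. By list the sums were 105 in control and 20 in KO for the thin filament, 152 and 35 for the thick filament, and, the other way round, 113 and 140 for the Z-disc, titin and M-band. TTN decides the last of these, since without it that list summed to 103 and 88. No single library held more than 31 counts of one of these 42 genes. Some muscle genes of these and the other lists, chosen after their values were seen, had counts mainly in control. The myosin light chain gene MYL1 had 19, 20 and 10 counts in control and 1, 2 and 0 in KO, and MYL3, the light chain of slow and ventricular muscle, had 15, 2 and 13 in control and 0 in each KO library. DES, which encodes the intermediate filament protein desmin, had 10, 46 and 24 counts in control and 1, 4 and 5 in KO. The ubiquitin ligase gene TRIM63 had 6, 14 and 13 counts in control and 3, 0 and 0 in KO. TTN (6, 4 and 0 in control, 31, 16 and 5 in KO) and the mitochondrial creatine kinase gene CKMT2 (3, 7 and 2 in control, 10, 6 and 11 in KO) went the other way.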
